A study of Homo sapiens with 30 samples.

Results

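The lamina-associated domains of HCT116 cells, a human colorectal carcinoma line, were compared between S phase and G2 on chromosomes 1 to 22. The domains were the intervals in the deposited consensus list of each stage, and every autosomal interval was taken: 266 in S and 341 in G2, which is 607 of the 1069 intervals in the lists of all 3 stages. Each interval was then placed by what it overlapped in the other stage, and genes were placed by their RefFlat positions on the hg19 build. The study labelled chromatin close to the nuclear lamina with APEX2, a peroxidase that tags nearby molecules with biotin, fused to lamin B1. Per the labels, cells of both stages had been transfected with this construct using Lipofectamine 2000, and for each stage there were 2 replicates of DNA pulled down on streptavidin and 2 of input DNA. G1 cells treated in the same way gave a list of their own, and nuclear, cytosolic and lamina-labelled RNA came from asynchronous HEK293FT cells, a human embryonic kidney line transfected with the same construct. The lamina-labelled RNA came from a native preparation and from one labelled PFA, the fixative paraformaldehyde. How the cells were sorted into stages is not given in the sources used here. Each list joins the replicates of its stage by a hidden Markov model, as the list names say, and carries no score. The spread between replicates is therefore unknown, every difference between S and G2 below is a description of 1 list against 1 list, and no test was possible.

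Lamina-associated domains are long stretches of chromatin that touch the protein meshwork under the inner nuclear membrane, of which lamin B1 is a component. They are as a rule poor in genes, late to replicate and weakly transcribed, and they hold many genes of other tissues, such as odorant receptors and neuronal adhesion proteins. The contacts are lost in mitosis and made again in the daughter cells, so cells in G1, S and G2 are at different times after that event.

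Most of the domain landscape was shared and G2 covered more of the genome. S domains covered 495.4 Mb, or 17.2% of the autosomal span, and G2 domains 564.2 Mb, or 19.6%, beside 533.0 Mb in G1. The shared bases came to 466.4 Mb, which is 94.1% of the S bases and 82.7% of the G2 bases. Bases in G2 and not in S, called gained here, came to 97.8 Mb. Bases in S and not in G2, called lost here, came to 29.0 Mb, so gain exceeded loss 3.37 times. The median interval was 1.3 Mb long in S and 1.2 Mb in G2, and the longest was 14.2 Mb in S and 9.0 Mb in G2. In bins of 100 kb, the grid on which all edges but 3 lie, 4664 of 28803 bins were in domains of both stages (16.2%), 980 were gained (3.4%) and 290 were lost (1.01%).

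The most frequent history was an interval with 1 partner. There were 228 such pairs, 85.7% of the S intervals and 66.9% of the G2 intervals, and they covered 410.0 Mb in S and 436.3 Mb in G2. A further 84 G2 intervals shared no base with an S interval, together 49.6 Mb with a median length of 0.5 Mb and a range of 0.1 to 1.6 Mb. In the other direction, 12 S intervals shared no base with a G2 interval, together 7.6 Mb with a median of 0.45 Mb. Another 9 S intervals were split into 21 G2 intervals, and 17 S intervals were merged into 8 in G2. The split intervals were long, with a median of 5.5 Mb and a range of 3.0 to 14.2 Mb in S.

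Edges moved outward more often than inward. Of the 456 edges of the 228 pairs, 188 (41.2%) lay at the same base in both stages, 181 (39.7%) lay farther out in G2 and 87 (19.1%) farther in. Moves of 100 kb or less made up 93 of the 181 outward and 57 of the 87 inward moves, so that 338 edges (74.1%), the unmoved ones included, were within 100 kb of their place in S. Longer moves were mainly outward, with 31 edges out by over 300 kb and 4 in by as much. The outward moves summed to 40 Mb and the inward moves to 13.7 Mb. Seen by interval, 109 of the 228 grew without retreating at either side, 49 shrank without growing, 27 did both and 43 were identical. The growing intervals had a median of 1.1 Mb in S and 1.5 Mb in G2, and the shrinking ones 1.6 Mb in S and 1.2 Mb in G2. These groups are made by the change itself, so the medians do not show that short domains tend to grow.

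**Figure D1:**
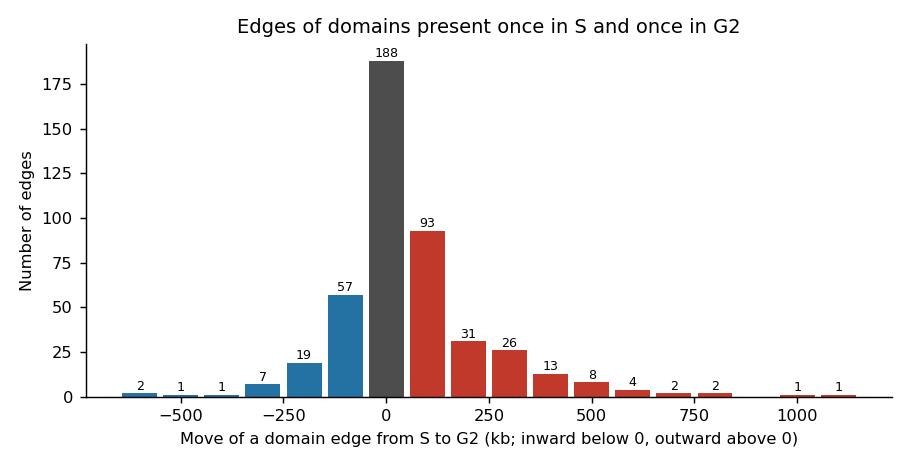
Number of domain edges by how far they moved from S to G2, for the intervals with 1 partner in the other stage; the horizontal axis is the move in kb, with inward moves below 0 and outward moves above 0, and the vertical axis counts edges. The 188 unmoved edges form the tallest bar, and the outward side reaches 1100 kb while the inward side reaches 600 kb.

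Among intervals that did not change at all, the longest were chr14:82000001-88800000 (6.8 Mb), chr18:61700001-66300000 (4.6 Mb) and chr11:22900001-27200000 (4.3 Mb). The first holds FLRT2, a neuronal adhesion and guidance protein, the potassium channel gene KCNK10 and GALC, the lysosomal galactosylceramidase. The second holds the cadherin genes CDH7 and CDH19. The third holds LUZP2 and ANO3, a member of the anoctamin family. G1 domains covered 6.8, 4.6 and 4.2 Mb of these 3 intervals, so they were nearly the same in all stages.

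The longest domain that appeared whole in G2 was chr22:48100001-49700000, 1.6 Mb with 6 genes, among them FAM19A5, a secreted chemokine-like protein. G1 domains covered 1.4 Mb of it. Next came chr4:8000001-9400000, 1.4 Mb with 30 genes, which holds ACOX3, a peroxisomal acyl-CoA oxidase gene, and the tandem array of USP17-like deubiquitinase genes, and of which 0.2 Mb was in G1 domains. Another, chr10:44000001-45400000, 1.4 Mb, holds CXCL12, a chemokine that guides haematopoietic cells, and ZNF239. A stretch next to a centromere, chr15:20100001-21400000, 1.3 Mb, holds the pseudogenes HERC2P3 and NBEAP1 and was wholly in G1 domains. Last of these, chr5:177700001-178900000, 1.2 Mb, holds the collagen gene COL23A1, the procollagen peptidase gene ADAMTS2 and the zinc finger genes ZNF454 and ZNF354B, and had no base in a G1 domain.

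The gained whole domains lay away from S domains as a rule, at a median distance of 2.15 Mb, and 20 of 84 were within 1 Mb of one. Among these, chr4:182900001-183200000 directly abutted an S domain. They held up to 72 genes, with a median of 3, and 8 held none. Of the 84, 27 were 300 kb or shorter and 14 were 1 Mb or longer. G1 domains touched 41 and missed 43.

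Whole domains that were lost in G2 held few genes. The longest was chr6:91500001-93800000, 2.3 Mb, which holds the long RNA gene CASC6 and MIR4643. Then came a pair of neighbours on chromosome 3, both of 0.9 Mb. Of these, chr3:62700001-63600000 holds SYNPR, a synaptic vesicle protein, and chr3:64200001-65100000 holds ADAMTS9, a secreted metalloprotease that cleaves proteoglycans. The next in length, chr5:45900001-46500000 and chr13:47800001-48400000, held no gene. Altogether 6 of the 12 held no gene and none held more than 3. G1 domains covered 8 of the 12 in full and missed 1.

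Merging filled short gaps and splitting opened short breaks. The longest filled gap was chr5:5000001-5700000 (0.7 Mb), which holds ADAMTS16 and ICE1, a subunit of the little elongation complex. It and chr5:6300001-6800000 (0.5 Mb), which holds the tRNA methyltransferase gene NSUN2 and the steroid reductase gene SRD5A1, joined 3 S intervals into a single G2 domain of 9.0 Mb, the longest of G2. Other filled gaps were chr10:131400001-132000000 with MGMT, which repairs alkylated guanine, and the transcription factor gene EBF3, then chr1:13700001-14100000 with PRDM2 and PDPN, and chr12:34000001-34400000 with ALG10. Breaks opened at chr10:56800001-57600000 (0.8 Mb), which holds MTRNR2L5, and at chr6:65800001-66300000 (0.5 Mb), and both were wholly in G1 domains. The longest S interval, 14.2 Mb on chromosome 5, fell into 3 G2 domains of 8.0, 1.0 and 4.3 Mb, and the break at chr5:25200001-25800000 was the wider of its 2 breaks.

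At the edges of the intervals with 1 partner, the largest outward move added chr11:133800001-134900000 (1.1 Mb) with 13 genes, among them the junction protein gene JAM3 and the condensin subunit gene NCAPD3. On chromosome 12 a move of 1.0 Mb added chr12:131200001-132200000 with RAN, the GTPase of nuclear transport, and the syntaxin gene STX2. KCNK9, a potassium channel gene, lay in a stretch of 0.8 Mb at chr8:140200001-141000000, and an equal move on chromosome 11, chr11:112200001-113000000, took in NCAM1. Neither of the first 2 had a base in a G1 domain, and the KCNK9 stretch had 0.4 of its 0.8 Mb there. Among the same intervals the largest inward moves freed chr5:135900001-136500000, chr8:58500001-59100000 with FAM110B, and chr13:101400001-101900000 with part of the sodium leak channel gene NALCN. Edges of split and merged intervals moved as far: chr10:129100001-130100000 (1.0 Mb) was added on chromosome 10, and chr21:19500001-20300000 (0.8 Mb) was freed on chromosome 21.

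The stretches that differed between S and G2 stood differently in G1. G1 domains covered 448.7 Mb (96.2%) of the bases shared by S and G2, 40.9 Mb (41.8%) of the gained bases and 22.3 Mb (76.9%) of the lost bases. Of the gained bases, whole new domains were covered for 36.6%, edges for 47.2% and filled gaps for 47.1%. Among lost bases the shares were 84.2% for whole domains, 68.9% for edges and 87.3% for breaks. Thus 56.9 Mb was in a domain in G2 alone of the 3 stages, and 6.7 Mb in S alone.

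Chromosomes differed in how much they gained. Coverage was larger in G2 on 19 chromosomes and smaller on 3. The 3 were chromosome 3 (40 Mb in S, 37.1 Mb in G2), chromosome 6 (20.6 and 18.5 Mb) and chromosome 9 (23.5 and 23.4 Mb). Chromosomes 6 and 3 also had the most loss, 5.5 and 5.1 Mb. Relative to S, the largest growth was on chromosome 22, from 1.7 to 4.8 Mb (2.82 times), and it rested on 1 S interval and 4 G2 intervals. It was 1.58 times on chromosome 12, 1.54 times on chromosome 19 and 1.5 times on chromosome 15, with a median of 1.15 times over the 22 chromosomes. Chromosomes 15, 17, 19 and 22 lost nothing. Across the 22 chromosomes, which differ in length and base composition, the gained share of a chromosome and its genes per Mb correlated with Pearson's r of 0.61 and Spearman's rho of 0.55, given as a description. Without chromosome 19 the values were 0.35 and 0.48.

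**Figure D2:**
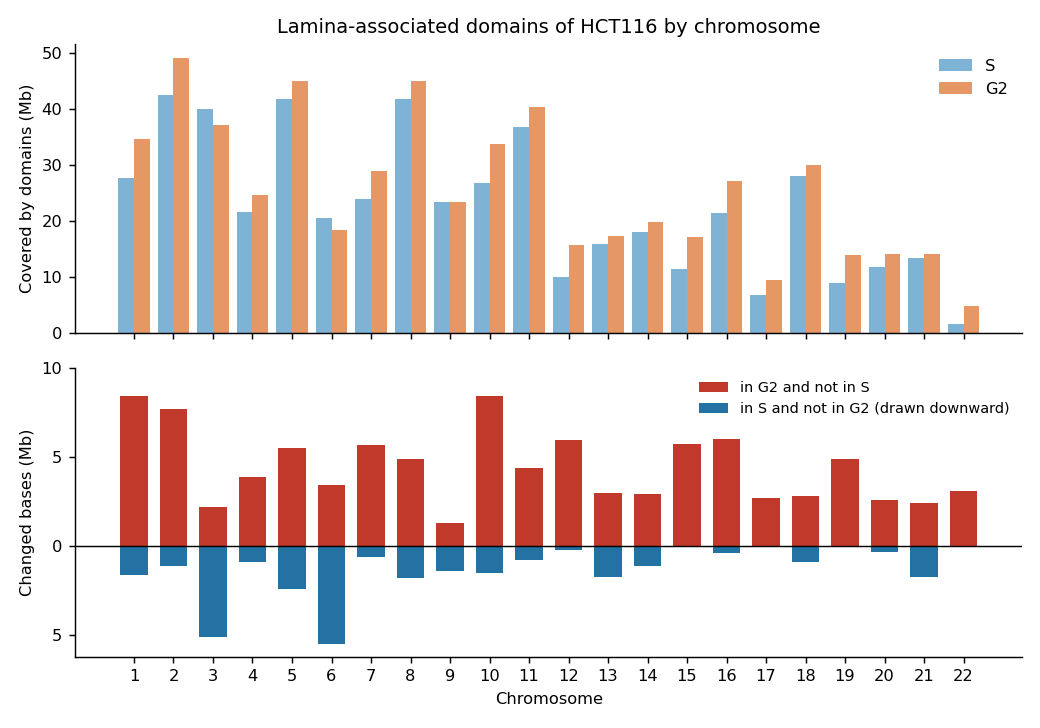
Domain coverage by chromosome in Mb, S and G2 side by side in the upper panel, and in the lower panel the bases in G2 and not in S (above 0) and those in S and not in G2 (drawn below 0). Chromosomes 3, 6 and 9 are lower in G2, and chromosomes 15, 17, 19 and 22 show no loss.

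Gained stretches were frequent near chromosome ends. Of the 980 gained bins, 233 (23.8%) lay within 5 Mb of the first or last base of a chromosome, beside 7.67% of all bins, 7.5% of shared bins and 3 of the 290 lost bins (1.03%). Counted the other way, 353 of the 2210 bins within 5 Mb of an end (16.0%) were in a domain in S, 583 (26.4%) in G2 and 416 (18.8%) in G1. With 2 Mb as the limit the share of gained bins was 8.47% beside 3.09% of all bins, and with 10 Mb it was 40.7% beside 15.3%. Without chromosome 19 it was 23.5% beside 7.48%. The chromosome 5 domain that merged 3 S intervals reached outward by 1.0 Mb to chr5:1200001-2200000, with 17 genes and no base in a G1 domain. That stretch holds TERT, the catalytic subunit of telomerase, the neutral amino acid transporter genes SLC6A18 and SLC6A19, the dopamine transporter gene SLC6A3 and NDUFS6, a subunit of respiratory complex I.

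Genes were counted in a domain when over 50% of their span lay in it. Of 25974 autosomal genes, 1461 were in domains of both stages (5.62%), 794 were gained in G2 (3.06%) and 92 were lost (0.354%). The gained stretches were richer in genes than the rest of the domains. They held 8.12 genes per Mb, beside 3.13 in the shared bases, 3.17 in the lost bases and 10.3 outside domains. Protein-coding genes were 50.6% of the gained, 42.7% of the kept, 35.9% of the lost and 68.5% of the genes outside. Of the gained genes 315 (39.7%) were in a domain in G1, and of the lost genes 49 (53.3%). Chromosome 19 supplied 161 of the 794 gained genes (20.3%) and none of the 92 lost.

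In families that are typical of lamina domains, most of the members found in a domain were kept. That also holds over all genes, with 1461 kept, 794 gained and 92 lost. Of 396 olfactory receptor genes, which encode odorant receptors, 120 were kept (30.3%, beside 5.62% of all genes), 19 gained (4.80%, beside 3.06%) and 1 (OR4A5) lost. The gained ones were mainly the OR4 cluster of chromosome 14, 14 of whose 16 genes lay in the outward step of an edge at chr14:20200001-20700000. Of 23 cadherin genes, 10 were kept (43.5%), none gained and 1 lost. The lost one was CDH9, whose S share was 100% and whose G2 share was 0. Synaptic adhesion and axon guidance genes (88) had 28 kept (31.8%) and 2 gained (2.27%), SLIT3 and NCAM1. SLIT3, a ligand of the guidance receptor ROBO, went from 35.7% to 98.2% of its span. NCAM1, a neural adhesion molecule, went from 47.0% to 100%. By exon bases neither of these genes was gained. Keratin-associated protein genes (94) had 30 kept (31.9%) and 2 gained (2.13%), KRTAP7-1 and KRTAP11-1. Among 495 small nucleolar RNA genes, 87 were kept (17.6%), 3 gained (0.606%) and 1 lost (0.202%). Of the kept ones, 74 were SNORD115 and SNORD116 copies of the imprinted cluster of chromosome 15. Intergenic long RNA genes named LINC (1489) had 283 kept, 92 gained and 13 lost, and antisense long RNA genes (1047) had 70 kept, 32 gained and 18 lost.

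Placed by span, ion channel genes had members in every class. Of 183 subunit genes 28 were kept (15.3%), 9 were gained (4.92%) and 1 was lost. The shares of all genes were 5.62%, 3.06% and 0.354%. Placed by exon bases in place of span, 6 of the 9 were gained. The gained ones were the potassium channel genes KCND3, KCNK9, KCNJ6 and KCNJ15, the calcium channel genes CACNA1E and CACNG3, the GABA receptor gene GABRB1 and the NMDA receptor genes GRIN2A and GRIN3A. GRIN2A had 0 of its span in S domains and 82.2% in G2. The lost one, KCNMA1, encodes the large-conductance calcium-activated potassium channel, and it went only from 52.1% to 48.2% of its span, just across the limit of 50%. By exon bases KCNMA1 was gained and not lost, so its direction depends on the rule. Solute carrier genes (379) had 9 kept and 9 gained (2.37% each), and transcription factors of development (153) had 7 kept (4.58%), 6 gained (3.92%) and 2 lost, gained shares near that of all genes. POU3F1, IRX4, FOXI2, LHX5, SOX1 and PAX1 were the gained ones. Among the lost, SOX14 went from 100% to 0.

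Other lists had few or no members that changed. None of the 39 HOX cluster genes, 55 keratins, 73 histone genes, 45 proteasome genes, 57 clustered protocadherins, 25 serpins of clades A and B, 18 UDP glucuronosyltransferases or 17 type I interferon genes was in a domain of S or G2. The same held for the 19 genes of the lamina and inner nuclear membrane and for 23 markers of intestinal epithelium, the tissue of origin of HCT116. Of all autosomal genes 91.0% lay outside the domains of both stages, so a short list with no member inside says little about its family. No HCT116 RNA was analysed here, so the cell line could be set against its markers by position and not by level. Of 80 cell cycle genes 1 was kept and none moved. Ribosomal protein genes had 2 of 75 gained, RPS7 and RPL38, respiratory chain genes 1 of 74, NDUFS6, and the 24 bitter taste receptor genes (1 kept), 55 cytochrome P450 genes (1 kept) and 13 protocadherin genes outside the clusters (2 kept, 15.4%) had none gained or lost.

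**Figure D3:**
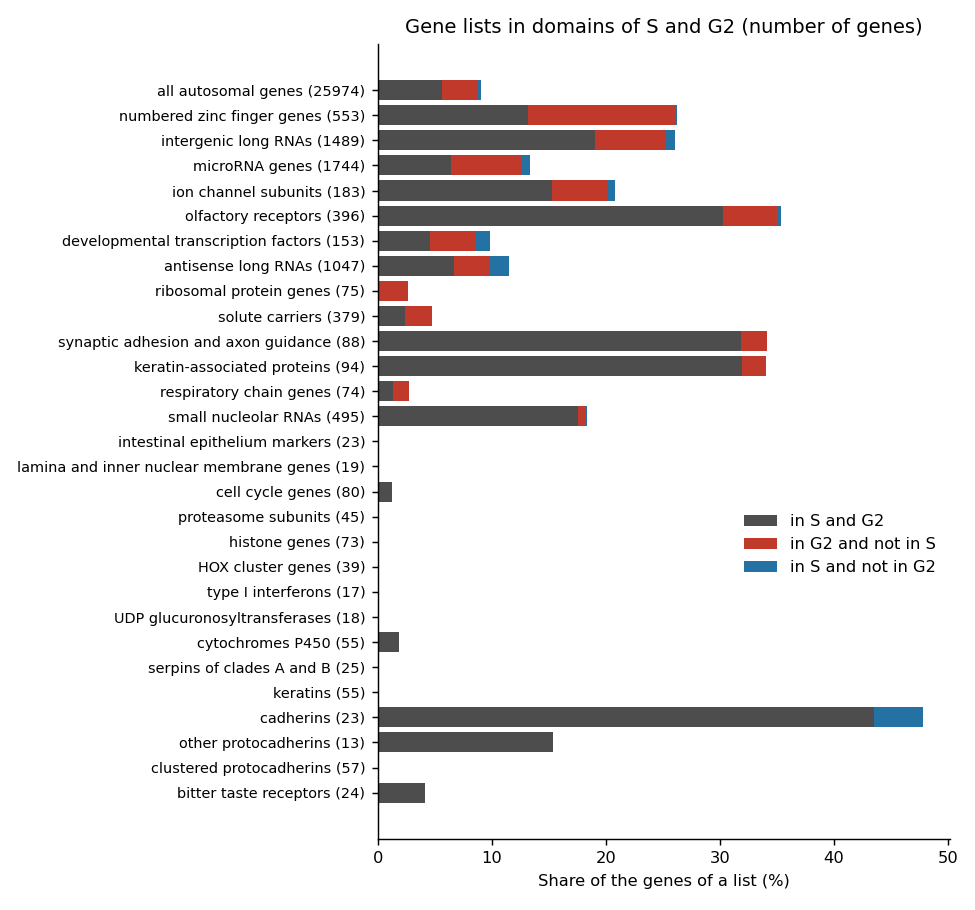
Share of the genes of each list, in percent, that lay in domains of both stages, of G2 alone or of S alone, with the number of autosomal genes in brackets; the top bar is all 25974 autosomal genes, and beta-defensins, whose copies the annotation joins, are not drawn. The red part, genes in G2 and not in S domains, is longest for numbered zinc finger genes (12.8%), and cadherins have the longest grey part.

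Zinc finger genes had more gained members than most lists. Genes with a ZNF number mostly encode DNA-binding proteins with tandem zinc fingers, many of them with a KRAB domain that recruits the silencing machinery of heterochromatin. Of 553, 73 (13.2%) were kept, 71 (12.8%) gained and 1 lost, beside 5.62%, 3.06% and 0.354% of all genes. The counts of zinc finger genes here include antisense and readthrough symbols that carry a ZNF number. Without such symbols 63 (12.1%) were gained. Most of the gain was on chromosome 19, where 57 of 271 (21%) were gained and 49 kept, while elsewhere 14 of 282 (4.96%) were gained and 24 kept. Of the other 1481 genes of chromosome 19, 104 (7.02%) were gained. Neighbouring zinc finger genes lie in tandem arrays and share domains, so they are not independent of each other. G1 domains held 42 of the 57 gained genes of chromosome 19.

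The chromosome 19 arrays fell into those that were steady and those that appeared. The arrays in chr19:19900001-21100000 and chr19:21600001-24700000, with 9 and 19 zinc finger genes, were in domains in S, G2 and G1. The array at chr19:36700001-38200000 grew at both edges, from 0.6 to 1.5 Mb, which kept 13 and added 15 zinc finger genes, and the G1 domain had the same limits as the G2 one. Toward the long-arm end, chr19:52800001-53100000 (9 zinc finger genes), chr19:53500001-54300000 (13) and chr19:58400001-58700000 (6) were domains in G2 and not in S, and G1 had 0.2, 0.7 and 0.3 Mb of them. A short-arm domain, chr19:12100001-12400000, with 9 zinc finger genes including ZNF44, was found in neither S nor G1. At chr19:56400001-57700000 the S domain of 0.8 Mb grew by 0.5 Mb, which added 4 zinc finger genes to 8. In all, chromosome 19 had 6 domains in S, 12 in G2 and 10 in G1.

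**Figure D4:**
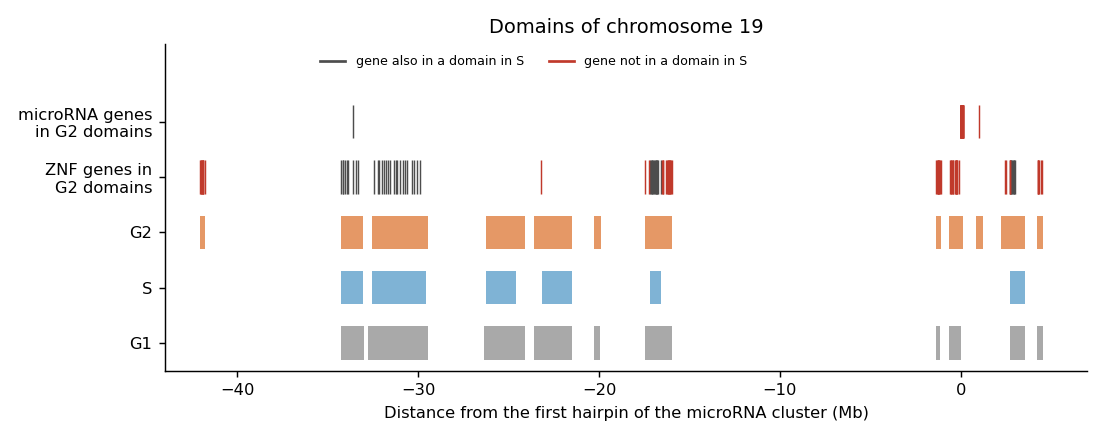
Domains of chromosome 19 in G1, S and G2 (bars), with ticks for the zinc finger and microRNA genes that lie in G2 domains; the horizontal axis is the distance in Mb from the first hairpin of the microRNA cluster. Red ticks, genes not in a domain in S, stand at the flanks, in the new domains around 0 and in the short-arm domain at the far left. Dark ticks stand in the domains that S already had.

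MicroRNA genes had about the same gained share as intergenic long RNA genes (6.18%), and chromosome 19 again held much of it. Of 1744 microRNA genes, 112 (6.42%) were kept, 107 (6.14%) gained and 13 lost. On chromosome 19, 51 of 140 (36.4%) were gained, and off it 56 of 1604 (3.49%), close to the 3.06% of all genes. The gained domain chr19:53500001-54300000 held 50 of the 51, the primate-specific placental cluster known as C19MC and the neighbouring miR-371 to miR-373 genes, with hairpins between bases 54169927 and 54292027. The edge of the G1 domain, at base 54200000, ran through the cluster: 14 of the 50 genes were in the G1 domain and 36 were not. These clusters were singled out after the values were seen.

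RefSeq held a mature sequence for 49 of the 50 genes, and several families share a seed, the bases 2 to 8 that pair with target RNAs. The sequences below are from RefSeq (GRCh38.p14), 5′ to 3′, with the seed in capitals, and the first 5 have the seed that 7 mature sequences of the cluster share, the next has that of 3, and the last pair has a seed shifted by 1 base. They are shown because the same shifted seed returns in the microRNA cluster that left a domain in G2.
hsa-miR-520e-3p: aAAGUGCUuccuuuuugaggg
hsa-miR-520a-3p: aAAGUGCUucccuuuggacugu
hsa-miR-520c-3p: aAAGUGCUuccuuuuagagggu
hsa-miR-372-3p: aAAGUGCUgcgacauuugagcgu
hsa-miR-373-3p: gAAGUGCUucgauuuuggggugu
hsa-miR-519c-3p: aAAGUGCAucuuuuuagaggau
hsa-miR-526b-3p: gAAAGUGCuuccuuuuagaggc
hsa-miR-519d-3p: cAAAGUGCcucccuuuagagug

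MIR520E (chr19:54178965-54179051), MIR519C (chr19:54189723-54189809), MIR520A (chr19:54194135-54194219) and MIR526B (chr19:54197647-54197729) lie on the G1 side of that edge. Beyond it lie MIR520C (chr19:54210707-54210793), MIR519D (chr19:54216601-54216688), MIR372 (chr19:54291144-54291210) and MIR373 (chr19:54291959-54292027). All are on the plus strand of hg19. The HEK293FT libraries hardly touched the cluster: 48 of the 50 genes had no count in any of the 8, and each nuclear library had 1 count over all 50. A count of 0 allows up to 3, and the counts are of reads over the hairpin genes, not of mature microRNAs.

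The miR-17-92 cluster, a proliferation-linked polycistron and a direct target of MYC, moved the opposite way. Its host gene MIR17HG (chr13:92000074-92006829) and its 6 hairpins lay in chr13:92000001-92100000, the first 100 kb of an S domain that ran to base 95100000. In G2 that edge was 100 kb farther in, and the stretch was not in a G1 domain, so all 7 genes were in a domain in S alone. The move is 1 step of the grid, the shortest that edges on the grid can show. The mature sequences of 4 of the 6 hairpins follow, with the seed in capitals.
hsa-miR-17-5p: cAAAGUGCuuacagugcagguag
hsa-miR-20a-5p: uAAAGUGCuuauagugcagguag
hsa-miR-18a-5p: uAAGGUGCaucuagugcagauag
hsa-miR-92a-3p: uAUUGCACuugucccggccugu

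The seed of miR-17-5p (MIR17, chr13:92002859-92002942) and miR-20a-5p (MIR20A, chr13:92003319-92003389) is the one of miR-526b-3p and miR-519d-3p above. Each of the 6 hairpins had reads in HEK293FT, while 48 of the 50 chromosome 19 genes had none. The chromosome 19 set holds no host gene, so the counts do not show whether its cluster was transcribed. Reads over the 6 hairpins numbered 52 and 114 in nuclear RNA, 1 and 6 in cytosolic RNA, 42 and 48 in the native lamina preparation and 1 and 4 in the PFA-fixed one. Counting ignored strand and gave a read to each gene it overlapped, so reads of the host transcript are counted for the hairpins too. MIR17HG itself stood at 119 and 177 CPM (counts scaled to a library's total) in the nuclear libraries. The cluster of MIR99A, MIRLET7C and MIR125B2 on chromosome 21 had 0 and 3 reads in the nuclear libraries. It was gained in an outward edge step, chr21:17600001-18200000, that was wholly in the G1 domain.

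Some tandem gene families lay in new G2 domains as a block; they were picked after their values were seen, and neighbours in a block are 1 event of the domain list. Over all genes 3.06% were gained. All 7 killer cell immunoglobulin-like receptor genes and 5 of 12 leukocyte immunoglobulin-like receptor genes lay in chr19:55000001-55400000, a domain of 0.4 Mb found in neither S nor G1. All 8 GIMAP genes, which encode small GTPases of lymphocytes, lay in chr7:149600001-150600000, and 7 of them were in a G1 domain. On chromosome 8, chr8:6700001-7200000 held all 10 alpha-defensin genes and pseudogenes, whose family encodes antimicrobial peptides of neutrophils and the gut, and it had no base in a G1 domain. Of 42 beta-defensin genes, 9 passed by span, and only DEFB1, in the same domain, has an exon in a gained stretch. The other 8, the A and B copies of DEFB104 to DEFB107, have their exons at both ends of a span that the annotation joins, and chr8:7400001-7600000 fills the middle of that span without touching an exon. Of 27 USP17-like genes 23 were gained, all but 2 of them in a G1 domain. Other families did not move as a block. Of 14 NLRP genes, which encode innate immune sensors and were taken from all autosomes, 3 were gained and 11 lay outside. The 17 type I interferon genes lay outside, as did 91.0% of all autosomal genes. Near-identical copies in these arrays share sequence, so the place of a single copy is less certain than that of its array.

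Long genes show that domain edges ran through transcription units. The longest gained gene was DLG2, a synaptic scaffold gene of 2172 kb, with 41.4% of its span in S domains and 56.8% in G2. PTPRN2, a phosphatase-like gene of secretory granules, went from 28.6% to 84.0%. Of 7 others among the 10 longest, POTEB, POTEB2, POTEB3, NF1P2, MIR5701-1, MIR5701-2 and MIR5701-3, each has copies about 1 Mb apart on chromosome 15 that the annotation joins under a single name. Their G2 shares, 50.6% to 52.0%, are those of the joined span. Of the longest lost genes, RARB, a retinoic acid receptor gene, went from 52.0% to 0. VAV3, a guanine nucleotide exchange factor gene, went from 98.1% to 21.9%. EBF1, a transcription factor gene of B cells, went from 68.6% to 43.8%, and XIRP2, a muscle actin-binding protein gene, from 68.7% to 14.8%. NALCN went from 100% to 46.6% and SYNPR from 99.2% to 0, and the long RNA genes LINC01122 and NALCN-AS1 went to 0 from 53.6% and 88.8%.

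RNA of HEK293FT describes the genes in another cell line and says nothing of their level in HCT116. A gene was counted as detected at 1 CPM or more in both libraries of a group, and total counts ran from 2321291 to 8557777 per library. Of all autosomal genes 60.3% were detected in the nuclear fraction. The share was 31.1% of the gained genes (247 of 794, 95% Wilson interval 28.0% to 34.4%), 15.0% of the kept genes (219 of 1461, 13.3% to 16.9%) and 25% of the lost genes (23 of 92, 17.3% to 34.7%), against 64.2% outside. The intervals cover counting error only and treat neighbouring genes as independent, which they are not. The order of gained above kept was the same in the cytosolic fraction (25.7% and 11.8%), the native lamina preparation (29.3% and 14.1%) and the PFA-fixed one (27.8% and 13.1%). In all 8 libraries together, 280 gained genes (35.3%) had no count, beside 801 kept genes (54.8%) and 13.3% of all genes. Among detected genes, the median nuclear level per kb of exon in the first and second library was 3.47 and 2.76 CPM for gained, 2.52 and 1.83 for kept, 3.13 and 2.32 for lost and 6.45 and 5.94 for genes outside. On this scale the gained genes stood nearer to the kept than to those outside.

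**Figure D5:**
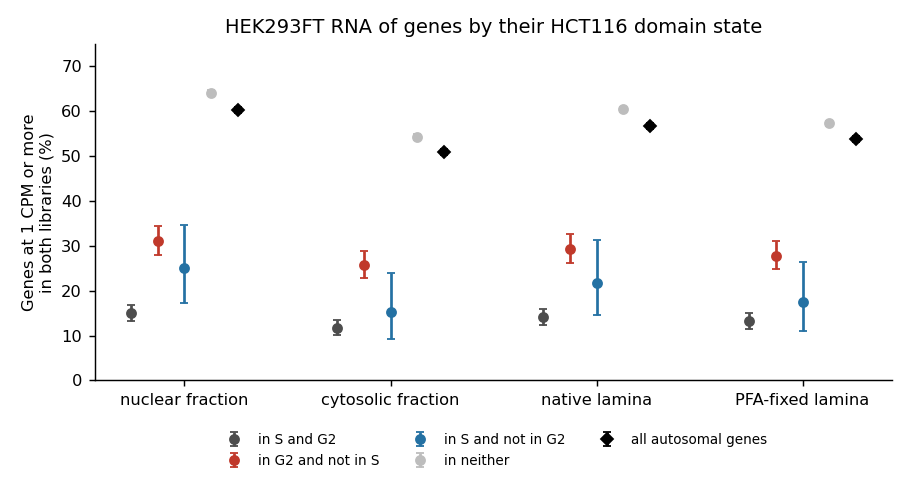
Percent of genes at 1 CPM or more in both HEK293FT libraries of each RNA group, by the domain state of the gene in HCT116, with 95% Wilson intervals as bars. Gained genes (31.1% in the nuclear fraction) stand above kept genes (15.0%) and below genes in neither stage (64.2%) in every RNA group, and the bars of the 92 lost genes are wide.

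Some gained genes had high RNA levels per kb of exon in HEK293FT. Per kb of exon the highest in the nuclear fraction was RPL38, with 70.4 and 97.8 CPM in the 2 libraries, in chr17:71500001-72400000. RPS7 had 32.7 and 43.1 CPM. INSIG1, which retains the sterol sensor SCAP in the endoplasmic reticulum, had 41.7 and 252 CPM, and its libraries differed more than those of the others. APMAP, an adipocyte membrane protein gene, had 93.8 and 75.4 CPM. SNORD153, a small nucleolar RNA gene, ranked here through its length of 76 bases, with only 2.45 and 3.28 CPM. Reads of any gene that overlaps it would be counted for it too. None of these 5 was in a G1 domain. Among the lost genes the highest per kb of exon were MIR18A, MIR19A, MIR17HG and MIR17 of the cluster described above and MTR. The hairpins MIR18A, MIR19A and MIR17 ranked here through their lengths of 71, 82 and 84 bases. MIR18A had only 2.76 and 7.75 CPM in the nuclear libraries, and MIR19A and MIR17 had less. Reads of the host transcript MIR17HG are counted for these hairpins too. MTR is the methionine synthase gene, and its S share was 61.9% and its G2 share 0. MTR had 242 and 176 CPM in nuclear RNA and 297 and 231 CPM in cytosolic RNA. It had 344 and 404 CPM in the native lamina preparation and 178 and 269 CPM in the PFA-fixed one.

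Many gained zinc finger genes of chromosome 19 were transcribed in HEK293FT. Of the 57, 41 were detected in the nuclear fraction, as were 30 of the 49 kept and 152 of the 165 outside domains. Their median nuclear level per kb of exon was 2.22 and 1.45 CPM in the 2 libraries, beside 1.70 and 0.906 CPM for the kept and 4.23 and 3.82 CPM for those outside. The ranges overlapped widely, from 0 to 23.2 and 25.5 CPM for the gained and from 0 to 14 and 11.3 CPM for the kept.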

How the data were processed

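Domains were mapped by the authors from biotin pull-down and input DNA on the hg19 build, per the submitters' processing notes, and deposited as 1 list of intervals per stage with no value per interval; the 2 replicates of a stage are joined in it. RNA values are read counts per gene, made by the authors with featureCounts 1.5.2 on RefFlat, per the file headers, without strand and with reads over several genes counted for each. The submitters' processing notes also name TopHat2 2.1.1, Bowtie2 2.3.2, edgeR 3.24.3 and bedtools 2.26.0, with no role. K562 and H3K9me3 samples were not used here.

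Intervals of S and G2 were joined where they shared at least 1 base. A 100 kb bin or gene was in a domain with over 50% of its length inside. Genes on several chromosomes (366) were left out. The span of a chromosome ended at the last base seen in a gene or list. CPM were scaled by total counts. Totals were 6517331 and 6710602 (nuclear), 7280956 and 5802728 (cytosolic), 8557777 and 5992656 (native lamina) and 5859026 and 2321291 (PFA-fixed lamina). Labels do not say whether replicates were separate cultures.

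The named domains were the 5 longest gained, lost, filled and opened ones, the 3 largest edge moves each way and the 3 longest identical intervals, with up to 6 genes of longest span. The named genes were the 10 longest and the 5 highest in nuclear CPM per kb of exon among gained and lost genes, and members of lists with 5 or fewer. Some that the rule names are not reported here. Other names were chosen after their values were seen, and the members and lists were chosen with earlier results of these data known. Gene lists were symbol patterns, given by counts only. Scripts used Python 3.11.15, pandas 2.3.3, scipy 1.17.1 and, for TMM factors, edgeR 4.0.16, and were checked on simulated lists.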

Additional observations from a re-analysis of the deposited data

How the results depend on the processing

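Each of 19 results was recomputed with chromosome X added, short intervals left out, short gaps closed, a stricter overlap, other rules for placing bins and genes, or other RNA settings, in 114 alternatives, 26 of them added after seeing the data. All but 8 values were within 1.5 times of the one reported. Gained bins outnumbered lost bins in all 6 settings and gained genes outnumbered lost genes in all 11, the reported setting included. All of these use the same pair of lists, so they do not measure the spread between replicates. Counting any base of a bin gave the same 980 gained and 290 lost bins, because nearly all edges lie on the grid. The 8 came from settings that by their construction set a stricter or wider limit, left genes out or divided joined copies. Pairs with an edge moved by over 100 kb numbered 99, not 185. At 5 CPM, 158 gained, 10 lost and 126 kept genes were detected. Without chromosome 19, 56 microRNA genes were gained, not 107. Placed by exon bases, 768 genes were gained, 740 of them also by span, and 1 beta-defensin gene, not 9. Gained bins within 2 Mb of a chromosome end numbered 83, and within 10 Mb 399. With either nuclear library left out, detected genes numbered 251 to 265 gained, 24 to 26 lost and 226 to 254 kept. No paired analysis was possible because each stage has 1 consensus list and the counts of bins, intervals and genes come from no test. Depth of the DNA libraries was not analysed here, and moves under 100 kb cannot be seen on the grid.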
